A study of Homo sapiens with 15 samples.

Results

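MYC, MYCN, MAX, MXI1, JUN, JUNB, JUND, FOS, FOSL1 and EGR1 are 10 human transcription factor genes of the MYC network, the AP-1 group and the EGR family. They were taken by name from 55773 gene names in a table of ribosome footprints, and all 10 were found. The members were chosen with their measured footprint levels known, and MYC was selected on its normalized counts, which went opposite ways in the Flag/HA-ZC3H7A and ZC3H7A/B-DD lines. Levels in those comparisons with their controls are therefore given below as a description, with no test of the members. The differences between the overexpressing lines rest on the same Flag/HA-ZC3H7A libraries and are given in the same way, and MYC is given without a test throughout. The other members are tested in Flag/HA-ZC3H7B cells against the Flag/HA control libraries, which serve both overexpressing lines. Since these members too were chosen with their levels known, their adjusted p-values describe the fit and are no independent evidence.

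Ribosome profiling reads the short stretches of mRNA that ribosomes protect from a nuclease, so a gene's footprints follow both the amount of its mRNA and how often that mRNA is translated, and footprints alone cannot tell these apart. The 15 libraries, 3 per group, came from HEK293 cells, an established human embryonic kidney line, and ZC3H7A and ZC3H7B are paralogous zinc finger proteins that bind RNA. Flag/HA-ZC3H7A and Flag/HA-ZC3H7B cells overexpressed a tagged protein and Flag/HA control cells carried the tag alone. The labels describe doxycycline at 1 µg/mL for 24 h to induce the tagged proteins, and mark the control libraries as treated too. Induced expression of this kind lies far above the natural level of the gene. By their labels, ZC3H7A/B-DD cells lack ZC3H7A and carry a hairpin RNA against ZC3H7B, and Parental cells are wild type with a control hairpin. Both were selected with puromycin at 5 µg/mL. The Flag/HA cells were lysed hypotonically, the other set was lysed after freezing with cycloheximide at 100 µg/mL, and the library protocols differed, so a level that differs between the sets cannot be told apart from protocol. The labels call the Flag/HA replicates independent. For the other set nothing says that the replicates were separate cultures, so its p-values measure only the spread between these samples. Each construct sits in a line of its own, and whether a line is 1 clone is not stated in the labels. In such bulk samples fewer cells of a type and less RNA per cell cannot be told apart.

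MYC and MYCN are basic helix-loop-helix leucine zipper proteins that bind DNA as a pair with MAX, at sites called E-boxes, and raise genes of growth, ribosome production and metabolism. MXI1 also pairs with MAX and acts against MYC at the same sites. AP-1 is a family of paired leucine zipper proteins: JUN, JUNB and JUND can pair with one another or with FOS proteins, whereas FOS and FOSL1 need a JUN partner. FOS, JUN and EGR1 are classic immediate early genes, which growth signals switch on within minutes and whose mRNAs are short lived.

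The coding stretch of 12 codons that covers the conserved DNA-contacting basic region is shown for 8 of the genes because it lets the families be compared at the level that ribosomes read, the codon. The letters run 5′ to 3′ and come from the longest coding sequence of each gene in GENCODE release 29 (GRCh38), and capitals mark codons that end in A or T.
MYCN: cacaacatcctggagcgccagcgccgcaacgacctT
MAX: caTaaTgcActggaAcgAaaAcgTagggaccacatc
MXI1: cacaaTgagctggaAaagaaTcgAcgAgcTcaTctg
JUN: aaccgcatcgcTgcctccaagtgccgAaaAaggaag
JUNB: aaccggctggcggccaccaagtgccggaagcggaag
JUND: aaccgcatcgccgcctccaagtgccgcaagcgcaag
FOS: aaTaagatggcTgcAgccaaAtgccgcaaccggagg
FOSL1: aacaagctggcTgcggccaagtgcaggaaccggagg
JUN and JUND encode the same residue at all 12 positions but share only 8 codons, and FOS and FOSL1 share 11 residues and 7 codons. JUNB and JUND have no codon ending in A or T in this stretch, against 3 in JUN, 4 in FOS and 7 each in MAX and MXI1.

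The libraries held between 20777204 and 42680589 reads assigned to genes. The targeted genes check the labels. ZC3H7A was at 38044 ± 562 normalized counts in Flag/HA-ZC3H7A cells, against 6547 ± 52.6 in Flag/HA control cells, and ZC3H7B was at 27885 ± 927 in Flag/HA-ZC3H7B cells, against 2152 ± 71.8 in Flag/HA control cells (here and below, mean ± SD, n = 3 libraries). A normalized count is the reads of a gene divided by a size factor for the library. The other paralog differed from the same controls as well. ZC3H7B was at 2820 ± 162 in Flag/HA-ZC3H7A libraries, all above the control, and ZC3H7A at 4762 ± 80.6 in Flag/HA-ZC3H7B libraries, all below it. In the libraries labelled ZC3H7A/B-DD neither target was lower: ZC3H7A had 7116, 1890.3 and 5066 normalized counts, against 1885, 1819.9 and 2311 in Parental libraries. ZC3H7B had 3948, 2399 and 2969 there, against 2479, 2321 and 2609 in Parental libraries. Results on this line are therefore given by label, and the targeted genes do not back a direction drawn from that label. Parental replicate 3 stood apart from replicates 1 and 2. Its chi-square over genes against them was 87.9 and 64.6 times that of counting error alone, against 8.73 times between those 2. The libraries labelled ZC3H7A/B-DD also lay apart from one another, at 18.3 to 25.55 times, whereas libraries within the Flag/HA groups differed by 1.65 to 6.06 times. All 10 genes known to be expressed in HEK293 cells were detected in every group, with sums from 21419 to 50922 per library, whereas 3 hepatocyte genes summed to between 2.53 and 17.8 normalized counts. Most of the HEK293 sums came from VIM, vimentin. Lists of 6 fibroblast and 6 blood cell genes were not as low as the hepatocyte list, with sums of 107 to 759 and 117 to 790 per library. HBB, a hemoglobin gene, was at 687 ± 98.3 in Flag/HA control and 230 ± 41.5 in Flag/HA-ZC3H7A libraries, and COL1A1, a collagen gene, at 343 ± 91.1 in Parental libraries. Some HEK293 genes lay lower, such as NEFM at 22.7 ± 1.18 in Flag/HA control libraries.

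MYC, which drives growth and is held at low levels in resting cells, had 5797, 4963 and 5497 normalized counts in Flag/HA-ZC3H7A libraries, against 2915, 2762 and 2661 in Flag/HA control libraries. The libraries labelled ZC3H7A/B-DD had 6428, 7286 and 6550.3 normalized counts, against 14074, 15627 and 16258 in Parental libraries. In both pairs the libraries lay fully apart, all higher in Flag/HA-ZC3H7A cells and all lower in those labelled ZC3H7A/B-DD. MYC lies at chromosome 8, 127735434 to 127741434, on the plus strand (GRCh38 in GENCODE release 29, as for the positions below). The mean was 1.95 times that of Flag/HA control cells, a log2 change of 0.96 ± 0.06 (SE), and 93.3% of 15599 genes had a smaller signed change. Where the label is ZC3H7A/B-DD the mean was 0.441 times that of Parental cells, a log2 change of −1.18 ± 0.10 (SE), and 1.94% of 17092 genes had a smaller signed change. Without Parental replicate 3 the log2 change was −1.14.

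**Figure D1:**
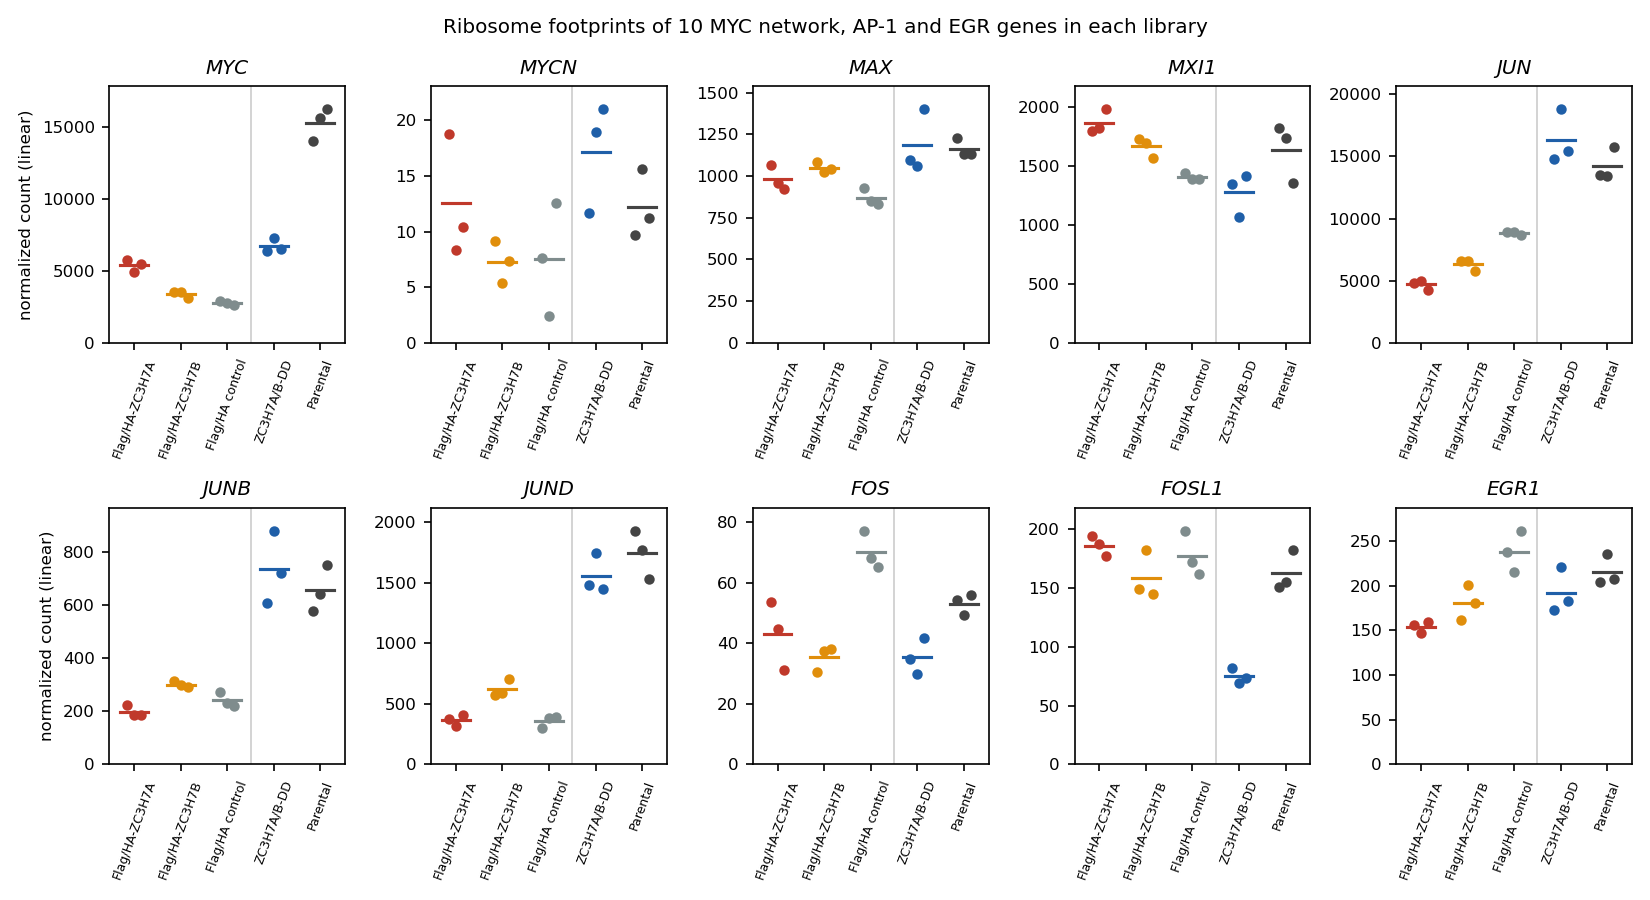
Normalized counts (linear axis from 0) of the 10 genes in each of the 15 libraries; points are libraries, horizontal lines are group means, and a vertical line separates the 2 sets of libraries. MYC lies between 4963 and 5797 in Flag/HA-ZC3H7A libraries, above the Flag/HA control libraries, and between 6428 and 7286 in the libraries labelled ZC3H7A/B-DD, below the Parental libraries.

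MYC had 3523, 3514 and 3119.8 normalized counts in Flag/HA-ZC3H7B libraries, all above the control libraries. The log2 change was 0.28 ± 0.06 (SE, untested, since the Flag/HA control libraries entered the choice of MYC). The log2 difference of Flag/HA-ZC3H7A from Flag/HA-ZC3H7B cells was 0.68 ± 0.06 (SE, untested). From low to high, MYC levels ran from Flag/HA control through Flag/HA-ZC3H7B, Flag/HA-ZC3H7A and ZC3H7A/B-DD to Parental, and no neighbouring groups overlapped. The step between Flag/HA-ZC3H7A and ZC3H7A/B-DD crosses the 2 sets and cannot be told apart from protocol.

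MYCN, the relative of MYC active in embryonic and neural tissue, was close to undetected. It lies at chromosome 2, 15940564 to 15947007. It held 14, 6 and 8 reads in Flag/HA-ZC3H7A libraries, 6, 4 and 5 reads in Flag/HA-ZC3H7B libraries and 6, 2 and 10 reads in Flag/HA control libraries. The libraries labelled ZC3H7A/B-DD held 15, 12 and 20 reads and the Parental libraries 12, 18 and 11 reads. Groups overlapped in every comparison, and a change of MYCN between Flag/HA-ZC3H7B and Flag/HA control cells was not detectable at this depth (limma, log2 change 0.15, 95% interval −0.99 to 1.28, adjusted p = 0.841). The means lay the other way from this log2 value, at 7.27 ± 1.88 normalized counts in Flag/HA-ZC3H7B libraries and 7.52 ± 5.09 in Flag/HA control libraries.

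MAX, the shared partner of the network, lies at chromosome 14, 65006174 to 65102695. Its normalized counts were 1065, 957 and 922 in Flag/HA-ZC3H7A libraries and 1081, 1022 and 1039.9 in Flag/HA-ZC3H7B libraries, against 925, 849 and 829.7 in Flag/HA control libraries. The Flag/HA-ZC3H7B libraries lay above all controls and the Flag/HA-ZC3H7A libraries overlapped them. MAX rose by 0.27 ± 0.07 in Flag/HA-ZC3H7B cells (log2, limma, adjusted p = 0.00137). It had 1098, 1060.1 and 1399 normalized counts in the libraries labelled ZC3H7A/B-DD, against 1229, 1129 and 1134 in Parental libraries, which overlapped.

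MXI1, the antagonist that competes with MYC for MAX, lies at chromosome 10, 110207605 to 110287365. Its normalized counts were 1802, 1826 and 1984 in Flag/HA-ZC3H7A libraries and 1735, 1702 and 1569 in Flag/HA-ZC3H7B libraries, against 1439, 1393 and 1390.4 in Flag/HA control libraries. Both overexpressing groups lay above all control libraries, with log2 changes of 0.41 ± 0.06 (SE, untested) for Flag/HA-ZC3H7A and 0.24 ± 0.06 for Flag/HA-ZC3H7B (limma, adjusted p = 6.81e-04). The log2 difference of Flag/HA-ZC3H7A from Flag/HA-ZC3H7B cells was 0.16 ± 0.06 (SE, untested). MXI1 had 1349, 1073 and 1417 normalized counts in libraries labelled ZC3H7A/B-DD, against 1822, 1743 and 1359 in Parental libraries, where the low value is replicate 3 and makes the groups overlap. The log2 change was −0.36, and −0.49 without Parental replicate 3.

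JUN, the founding AP-1 subunit, went the other way from MYC in the overexpressing lines. It lies at chromosome 1, 58780788 to 58784327, on the minus strand. It had 4862, 5023 and 4235 normalized counts in Flag/HA-ZC3H7A libraries and 6622, 6606 and 5813 in Flag/HA-ZC3H7B libraries, against 8952, 8902 and 8692 in Flag/HA control libraries. The 3 groups did not overlap. The Flag/HA-ZC3H7A mean was 0.532 times that of the control, a log2 change of −0.91 ± 0.06 (SE, untested). In Flag/HA-ZC3H7B cells JUN fell by 0.48 ± 0.06 on the log2 scale (limma, adjusted p = 1.73e-07). The log2 difference of Flag/HA-ZC3H7A from Flag/HA-ZC3H7B cells was −0.43 ± 0.06 (SE, untested). JUN had 14804, 18780.1 and 15429 normalized counts in libraries labelled ZC3H7A/B-DD, against 13483, 13434 and 15729 in Parental libraries, which overlapped (log2 change 0.20 ± 0.12).

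JUND, the JUN protein with the steadiest expression in most tissues, lies at chromosome 19, 18279760 to 18281622, on the minus strand. It had 372, 319 and 411 normalized counts in Flag/HA-ZC3H7A libraries and 576, 589 and 703 in Flag/HA-ZC3H7B libraries, against 304, 384 and 389.7 in Flag/HA control libraries. Only the Flag/HA-ZC3H7B libraries lay clear of the control libraries, all of them above. JUND rose by 0.80 ± 0.11 in Flag/HA-ZC3H7B cells (log2, limma, adjusted p = 1.48e-06). Every Flag/HA-ZC3H7A library lay below every Flag/HA-ZC3H7B library, with a log2 difference of −0.76 ± 0.11 (SE, untested). The libraries labelled ZC3H7A/B-DD had 1481, 1749 and 1445 normalized counts, against 1927, 1770.4 and 1529 in Parental libraries, which overlapped.

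JUNB, a JUN protein that often restrains JUN, lies at chromosome 19, 12791496 to 12793315. Its normalized counts were 224, 184 and 188 in Flag/HA-ZC3H7A libraries and 313, 298 and 290.4 in Flag/HA-ZC3H7B libraries, against 271, 232 and 221 in Flag/HA control libraries. The Flag/HA-ZC3H7B libraries lay above all others and the Flag/HA-ZC3H7A libraries overlapped the control. JUNB rose by 0.32 ± 0.11 in Flag/HA-ZC3H7B cells (log2, limma, adjusted p = 0.0222), a call lost without Flag/HA-ZC3H7B replicate 1 (adjusted p = 0.0711), Flag/HA control replicate 2 (adjusted p = 0.0719) or Flag/HA control replicate 3 (adjusted p = 0.106). Its log2 difference of Flag/HA-ZC3H7A from Flag/HA-ZC3H7B cells was −0.60 ± 0.11 (SE, untested). JUNB had 609, 879 and 719 normalized counts in the libraries labelled ZC3H7A/B-DD, against 579, 640.2 and 752 in Parental libraries, which overlapped.

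The makeup of the JUN family differed between the Flag/HA groups. JUN made up 89.2% ± 1.64 (SD) of the family sum in Flag/HA-ZC3H7A libraries and 87.2% ± 1.59 in Flag/HA-ZC3H7B libraries, against 93.6% ± 0.286 in Flag/HA control libraries. JUND made up 7.03% ± 1.38 in Flag/HA-ZC3H7A libraries and 8.62% ± 1.48 in Flag/HA-ZC3H7B libraries, against 3.804% ± 0.538 in Flag/HA control libraries. The shares of both genes in the overexpressing lines lay clear of the control, and the shares of the 2 overexpressing lines overlapped. JUN made up 87.7% ± 0.0502 and JUND 8.38% ± 0.333 in libraries labelled ZC3H7A/B-DD, against 85.5% ± 1.62 and 10.6% ± 1.86 in Parental libraries. The JUND shares overlapped, whereas every JUN share of the libraries labelled ZC3H7A/B-DD, from 87.6% to 87.7%, lay above the Parental shares, from 84.3% to 87.3%. These shares follow from the levels above and are not a separate test.

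**Figure D2:**
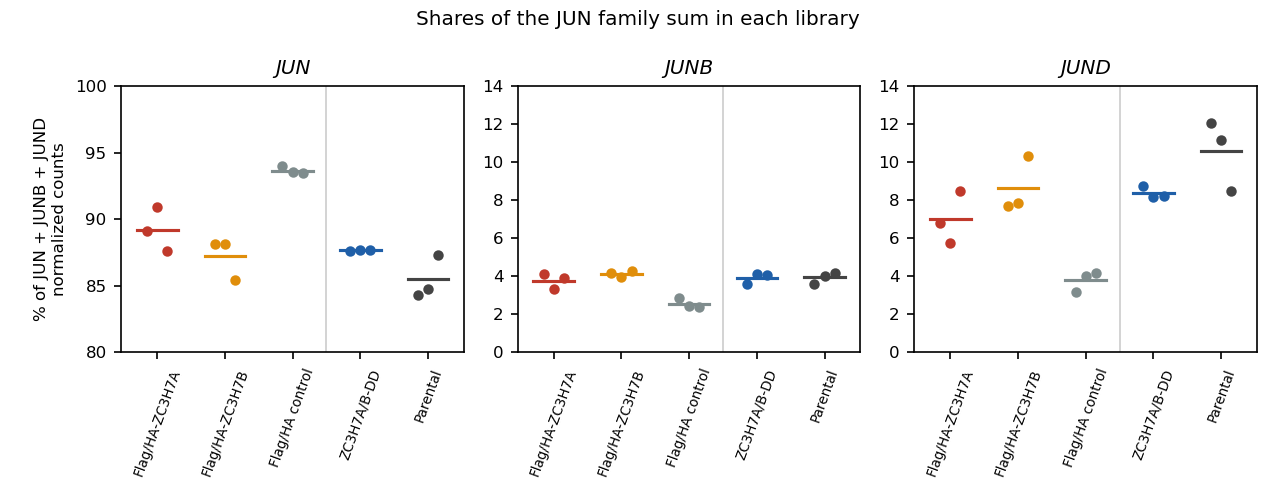
Share of JUN, JUNB and JUND in their summed normalized counts, in % (linear axes; the JUN axis runs from 80 to 100, the others from 0), with points for libraries and lines for group means. JUND lies at 7.03% and 8.62% on average in the Flag/HA-ZC3H7A and Flag/HA-ZC3H7B libraries, above 3.804% in the Flag/HA control libraries.

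FOS, the short-lived AP-1 subunit, lies at chromosome 14, 75278774 to 75282230, and gave few footprints. A 30-base stretch of its 3′ UTR, bases 635 to 664 after the stop codon, is shown because such AU-rich elements are known to mark mRNAs for rapid decay.
FOS: gtgtttttaATTTATTTAttaagatggatt
The capitals mark 2 overlapping ATTTA motifs. The whole UTR of 806 bases holds 5 such motifs, a density that 6.04% of 16248 genes reach or exceed. The 476 bases of the MYC 3′ UTR hold 4, a density that 2.23% of genes reach or exceed. FOS had 53.6, 44.7 and 31.3 normalized counts in Flag/HA-ZC3H7A libraries and 30.4, 37.6 and 38.1 in Flag/HA-ZC3H7B libraries, against 77.2, 68.2 and 65.4 in Flag/HA control libraries. Both overexpressing groups lay below all control libraries and overlapped each other. FOS fell by 0.97 ± 0.24 in Flag/HA-ZC3H7B cells (log2, limma, adjusted p = 0.00148), and its log2 change in Flag/HA-ZC3H7A cells was −0.72 ± 0.24 (SE, untested). It had 35.0, 29.9 and 41.9 normalized counts in the libraries labelled ZC3H7A/B-DD, all below the 54.2, 49.5 and 55.9 of the Parental libraries (log2 change −0.58 ± 0.21, untested). These values rest on 19 to 67 reads per library, which limits their precision.

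FOSL1, the FOS relative also called FRA1 that is tied to migration and invasion, lies at chromosome 11, 65892049 to 65900573, on the minus strand. It had 82.4, 69.3 and 73.4 normalized counts in the libraries labelled ZC3H7A/B-DD, against 151, 155 and 183 in Parental libraries. The libraries lay fully apart, with a mean 0.460 times that of Parental cells and a log2 change of −1.11 ± 0.16 (SE, untested), or −1.03 without Parental replicate 3. In Flag/HA-ZC3H7A libraries FOSL1 had 194, 187 and 177 normalized counts and in Flag/HA-ZC3H7B libraries 149, 182 and 145, against 199, 172 and 162 in Flag/HA control libraries. All 3 groups overlapped there, and the change in Flag/HA-ZC3H7B cells missed the threshold (limma, log2 change −0.16, 95% interval −0.44 to 0.11, adjusted p = 0.313).

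EGR1, a zinc finger factor that growth factors induce through the serum response factor SRF, lies at chromosome 5, 138465490 to 138469315. Its promoter, at chr5:138465354-138465425 on the plus strand (RefSeq, GRCh38.p14), is shown because it holds a pair of CArG boxes, the site that SRF binds, in capitals at −105 to −96 and −83 to −74 from the start site. The JUND promoter, at chr19:18281795-18281842 on the minus strand, is shown beside it for the TGACGTCA motif in capitals at −200 to −193.
EGR1: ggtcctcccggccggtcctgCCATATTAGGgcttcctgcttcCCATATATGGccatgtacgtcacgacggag
JUND: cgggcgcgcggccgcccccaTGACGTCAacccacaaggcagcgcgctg
On either strand, a CArG box was present in 1.29% of 35116 promoters of 300 bases and TGACGTCA in 1.85%. The AP-1 site TGANTCA (7.71% of promoters), the E-box CACGTG (7.26%) and the EGR site GCGTGGGCG (0.795%) matched none of the members' promoters read, those of EGR1, FOS, JUN, JUNB, JUND, MAX, MXI1 and MYCN.

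EGR1 had 157, 147 and 159 normalized counts in Flag/HA-ZC3H7A libraries and 161, 201 and 180.4 in Flag/HA-ZC3H7B libraries, against 238, 215 and 261 in Flag/HA control libraries. Both overexpressing groups lay below every control library. EGR1 fell by 0.40 ± 0.13 in Flag/HA-ZC3H7B cells (log2, limma, adjusted p = 0.0105), a call lost without Flag/HA-ZC3H7B replicate 1 (adjusted p = 0.0581) or Flag/HA control replicate 3 (adjusted p = 0.0678). Its log2 change in Flag/HA-ZC3H7A cells was −0.62 ± 0.13 (SE, untested). EGR1 had 173, 221 and 183 normalized counts in libraries labelled ZC3H7A/B-DD, against 204, 235 and 207 in Parental libraries, which overlapped. SRF itself, the factor that binds CArG boxes, rose in Flag/HA-ZC3H7A cells to 855 ± 49.9 normalized counts, against 466 ± 24.4 in Flag/HA control cells (limma, adjusted p = 1.43e-09).

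All 10 genes passed the filter on low values in both fits. MYCN passed that of the Flag/HA libraries only through Flag/HA-ZC3H7A replicates 1 and 3 and Flag/HA control replicate 3. Its highest Flag/HA-ZC3H7B value, 9.12, lay below the filter of 10, so its test there says little. In Flag/HA-ZC3H7B cells 4 of the 9 genes tested rose (MAX, MXI1, JUNB and JUND) and 3 fell (JUN, FOS and EGR1) against Flag/HA control, while 54.3% of all genes were called (28.9% higher, 25.4% lower). The libraries of the 2 groups did not overlap for those 7 genes and MYC, nor for 61.1% of all genes. The median size of the log2 change, whatever its sign, was 0.30 for the 10 members, against 0.29 for all genes. In the Flag/HA-ZC3H7A comparison, which has the same control libraries, MYC and MXI1 lay wholly above the control and JUN, FOS and EGR1 wholly below it. Of all genes there, 63.9% did not overlap and 57.5% were called. Under the label ZC3H7A/B-DD 3 members lay wholly below Parental libraries (MYC, FOS and FOSL1), while 40.8% of all genes did not overlap and 24.5% were called. Nothing is read from the counts of these 2 comparisons, since the choice of members used them. Between the overexpressing lines MYC and MXI1 lay wholly higher and JUN, JUNB, JUND and EGR1 wholly lower in Flag/HA-ZC3H7A cells. Of all genes there, 43.7% did not overlap and 36.6% were called (18.4% higher, 18.2% lower).

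**Figure D3:**
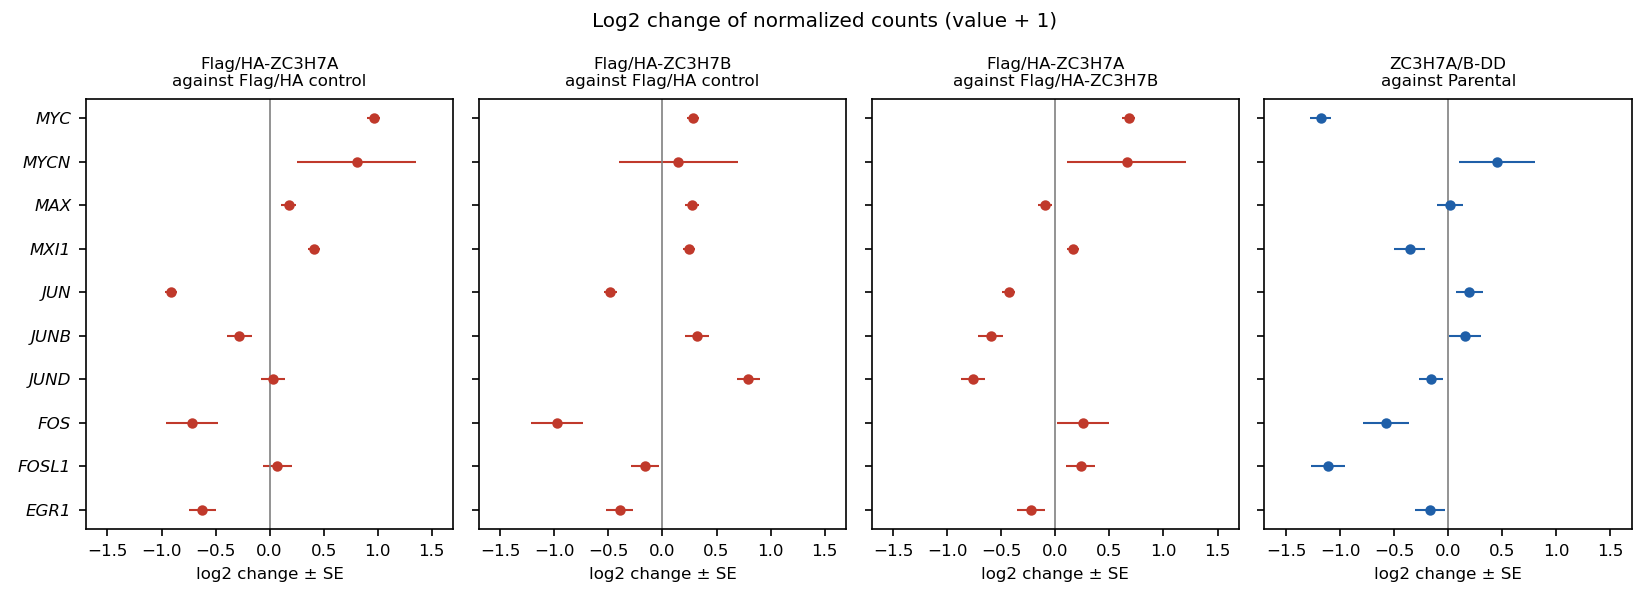
Log2 change ± SE of normalized counts (value + 1) for the 10 genes in the 4 comparisons, from limma. MYC lies at 0.96 for Flag/HA-ZC3H7A and −1.18 where the label is ZC3H7A/B-DD, JUN lies left of 0 in the 3 Flag/HA panels, and the widest bars belong to MYCN.

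Per kilobase of the longest coding sequence, which allows levels of different genes to be compared, JUN ranked first and MYC second among the members in every group. The order depends on this division. In normalized counts the mean of MYC lay above that of JUN in Flag/HA-ZC3H7A libraries (5419 against 4707) and Parental libraries (15320 against 14215). JUN was at 4754 ± 421 normalized counts per coding kilobase in Flag/HA-ZC3H7A cells and 8938 ± 139.5 in Flag/HA control cells. MYC was at 4124 ± 321 in Flag/HA-ZC3H7A cells and 2115 ± 97.3 in Flag/HA control cells on the same scale. The level of JUN was thus 1.15 times that of MYC in Flag/HA-ZC3H7A cells and 2.49 times in Flag/HA-ZC3H7B cells, against 4.23 times in Flag/HA control cells. It was 3.21 times that of MYC in the libraries labelled ZC3H7A/B-DD, against 1.23 times in Parental libraries. These ratios hold the MYC values that entered its choice and are a description. FOS and MYCN were the lowest in every group, with MYCN at 9.01 ± 3.95 per coding kilobase in Flag/HA-ZC3H7A cells and 5.41 ± 3.66 in Flag/HA control cells.

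The codon makeup of the members did not enter their choice, and it varied widely among them. The share of codons ending in A or T ran from 8.09% in JUND, 14.2% in JUN and 17.6% in JUNB to 35.2% in MAX and 38.8% in MXI1, and was 23.5% in MYC. All 10 lay below the median of 39.4% over 18272 genes, and MYC, MYCN, JUN, JUNB, JUND and EGR1 lay in the lowest quartile, up to 26.4%. Genes of that quartile had a median log2 change of 0.20 in Flag/HA-ZC3H7A cells and 0.19 in Flag/HA-ZC3H7B cells, against −0.14 for the highest quartile in both. Under the label ZC3H7A/B-DD the medians were −0.04 for the lowest quartile and 0.08 for the highest. Within the lowest quartile the members lay from low to high, some near the middle. In Flag/HA-ZC3H7B cells 88.0% of the 3073 genes of the quartile had a smaller change than JUND, and 8.27% had a smaller change than JUN. The share was 61.2% for JUNB, 58.0% for MYC, 46.3% for MYCN and 10.5% for EGR1. In Flag/HA-ZC3H7A cells, where MYC was chosen for its change, 89.9% had a smaller change than MYC, 7.49% than EGR1 and 3.74% than JUN. The share there was 85.3% for MYCN, 37.1% for JUND and 17.2% for JUNB. JUN and JUND both have a low A or T share and lay toward opposite ends in Flag/HA-ZC3H7B cells. Whether codon makeup plays a part in the members' changes was not tested.

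**Figure D4:**
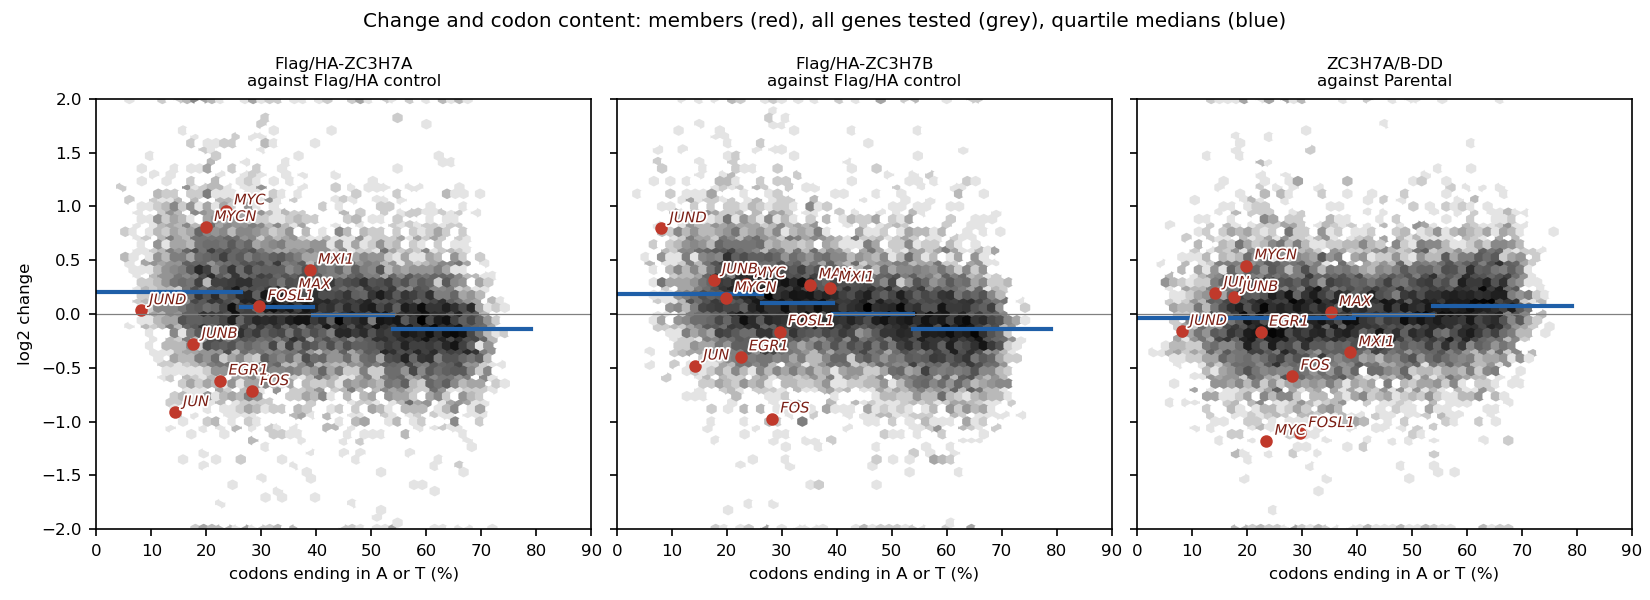
Log2 change against the share of codons ending in A or T (%) for all genes tested with a coding sequence (grey, darker for more genes, values beyond ±2 drawn at the edge), the medians of the quartiles of genes (blue) and the 10 members (red). All members lie left of 39.4%; JUN at 14.2% and FOS at 28.2% lie below the median of their quartile in both Flag/HA panels, and MYC and FOSL1 lie low in the panel of ZC3H7A/B-DD against Parental.

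Genes that work with MYC were read from lists chosen with earlier results of these data known, so their counts are a description beside the background. The same holds for the later lists. Genes named from any list, SRF above among them, were picked for their small p, so their adjusted p-values also describe the fit and are no separate test. With 1 library left out in turn, counts under the label ZC3H7A/B-DD moved with the number of genes called, from 1895 without Parental replicate 2 to 5560 without Parental replicate 3, so these ranges stand beside the counts below. Of 20 MAX partners and MYC cofactors, 11 were higher and 2 lower in Flag/HA-ZC3H7A cells (29.2% higher and 28.2% lower over all genes), 10 were higher and 1 lower in Flag/HA-ZC3H7B cells, and 1 was higher and 1 lower where the label is ZC3H7A/B-DD (11.0% higher and 13.5% lower over all genes). Without Parental replicate 3 the number lower there was 3. Their median log2 changes were 0.18, 0.19 and −0.01, beside 0.02, 0.04 and 0.02 for all genes. RUVBL2, a helicase of MYC-bound remodelling complexes, rose to 7651 ± 386 normalized counts in Flag/HA-ZC3H7A cells and 7742 ± 262 in Flag/HA-ZC3H7B cells, against 5423 ± 165 in Flag/HA control cells. ZBTB17, the MIZ1 protein through which MYC represses genes, fell to 192 ± 8.86 normalized counts in Flag/HA-ZC3H7A cells, against 267 ± 21.6 in Flag/HA control cells (limma, adjusted p = 5.19e-04). It also fell in the libraries labelled ZC3H7A/B-DD, to 273 ± 29.5 normalized counts, against 553 ± 9.36 in Parental libraries (limma, adjusted p = 3.97e-04). MGA, a large MAX partner that represses E-box genes, fell to 7921 ± 89.7 in Flag/HA-ZC3H7B cells, against 9347 ± 271 in Flag/HA control cells (limma, adjusted p = 2.9e-05).

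Of 22 genes for MYC turnover and upstream control, 11 were higher and 4 lower in Flag/HA-ZC3H7A cells, 11 and 6 in Flag/HA-ZC3H7B cells and 3 and 2 in the libraries labelled ZC3H7A/B-DD (0 to 7 and 1 to 3 with 1 library left out). Their median log2 changes were 0.12, 0.12 and 0.14. AURKA, a mitotic kinase that also shields MYCN from degradation, rose to 4757 ± 276 normalized counts in Flag/HA-ZC3H7A cells and 4775 ± 221 in Flag/HA-ZC3H7B cells, against 3289.9 ± 75.2 in Flag/HA control cells. IGF2BP1, an RNA-binding protein that stabilizes MYC mRNA, rose to 14568 ± 379 in Flag/HA-ZC3H7A cells, against 10651 ± 259 in Flag/HA control cells (limma, adjusted p = 3.29e-09). CTNNB1, the WNT coactivator beta-catenin that raises MYC transcription, fell to 35715 ± 1157 there, against 41646 ± 1251 in Flag/HA control cells. USP28, which removes ubiquitin from MYC, fell to 2435 ± 87.4 in Flag/HA-ZC3H7A cells, against 2968 ± 29.7 in Flag/HA control cells (limma, adjusted p = 1.35e-05). In Flag/HA-ZC3H7B cells GSK3A, a kinase that marks MYC for degradation, rose to 1671 ± 85.4, against 1148 ± 35.3 in Flag/HA control cells. FUBP1, which binds an element upstream of MYC, fell to 13823 ± 318 in Flag/HA-ZC3H7B cells, against 17955 ± 301 in Flag/HA control cells (limma, adjusted p = 4.85e-08). SKP2, a ubiquitin ligase subunit that acts on MYC, fell there as well, to 4174 ± 101, against 5170.0 ± 103 in Flag/HA control cells. PCBP2, an RNA-binding protein, fell to 4979 ± 86.1 in the libraries labelled ZC3H7A/B-DD, against 6457 ± 100.2 in Parental libraries (limma, adjusted p = 0.00842).

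Genes known to respond to MYC did not move as 1 block. Of 46 genes known to be raised by MYC, 22 were higher and 17 lower in Flag/HA-ZC3H7A cells, 22 and 8 in Flag/HA-ZC3H7B cells, and 5 and 11 in the libraries labelled ZC3H7A/B-DD (1 without Parental replicate 1 or 2 to 14 without Parental replicate 3, and 8 to 13), with median log2 changes of 0.10, 0.14 and −0.03. FBL, the nucleolar methyltransferase fibrillarin, rose to 36157 ± 1809 normalized counts in Flag/HA-ZC3H7A cells and 26113 ± 1107 in Flag/HA-ZC3H7B cells, against 19542 ± 822 in Flag/HA control cells. CCND2, a cyclin of the first growth phase, rose to 6439.9 ± 580.3 in Flag/HA-ZC3H7A cells, against 4253 ± 210.3 in Flag/HA control cells. UTP20, which helps to process ribosomal RNA, fell to 6215 ± 29.96 there, against 8757 ± 254 in Flag/HA control cells (limma, adjusted p = 5.96e-10), as did CAD, the first enzyme of pyrimidine synthesis, at 7646 ± 448 against 9653 ± 278. TFRC, the transferrin receptor, fell to 16539 ± 1181 in Flag/HA-ZC3H7B cells, against 24645 ± 441 in Flag/HA control cells (limma, adjusted p = 8.24e-10). MINA, a hydroxylase of a ribosomal protein, fell there to 1467 ± 29.4, against 1721 ± 50.9 in Flag/HA control cells. CDK4, the cyclin D kinase, fell to 4495 ± 72.4 in the libraries labelled ZC3H7A/B-DD, against 8053 ± 585 in Parental libraries (limma, adjusted p = 2.82e-04). SHMT2, a mitochondrial serine enzyme, fell to 10402 ± 549.5 in the same libraries, against 19649 ± 2363 in Parental libraries. TERT, the catalytic part of telomerase, rose there to 246 ± 56.7, against 95.5 ± 12.4 in Parental libraries (limma, adjusted p = 0.00172). PPAN, a ribosome biogenesis factor whose exons are shared with a readthrough transcript, so that its count is uncertain, was called higher in Flag/HA-ZC3H7B cells at 106 ± 24.98, against 21.4 ± 4.44 in Flag/HA control cells.

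Of 13 genes known to be repressed by MYC, 3 were higher and 5 lower in Flag/HA-ZC3H7A cells, 4 and 3 in Flag/HA-ZC3H7B cells, and 1 and 5 in the libraries labelled ZC3H7A/B-DD. The 3 higher in Flag/HA-ZC3H7A cells were 1 without Flag/HA-ZC3H7A replicate 1, 2 or 3 or without Flag/HA control replicate 1, and the 5 lower were 3 without Flag/HA-ZC3H7A replicate 2 or Flag/HA control replicate 3. The 5 lower where the label is ZC3H7A/B-DD were 1 to 3 without any other single library than Parental replicate 3. The median log2 changes were −0.16, 0.11 and −0.37. CDKN1A, the cell cycle inhibitor p21, fell to 478 ± 28.5 normalized counts in Flag/HA-ZC3H7A cells and 619 ± 3.43 in Flag/HA-ZC3H7B cells, against 1536 ± 49.7 in Flag/HA control cells (limma, adjusted p = 1.81e-15 and 1.05e-13). It rose to 3463 ± 604 in the libraries labelled ZC3H7A/B-DD, against 1180.5 ± 73.1 in Parental libraries (limma, adjusted p = 9.92e-05). NDRG1, a stress gene listed as repressed by MYC, had the same sign as MYC instead: it rose to 5464 ± 139 in Flag/HA-ZC3H7A cells and 3709.9 ± 49.5 in Flag/HA-ZC3H7B cells, against 2652 ± 66.7 in Flag/HA control cells. NDRG1 fell to 3492 ± 214 in libraries labelled ZC3H7A/B-DD, against 8609.8 ± 318 in Parental libraries (limma, adjusted p = 2.64e-05). CLU, the secreted chaperone clusterin, fell in both overexpressing lines, to 5477 ± 367 and 5252 ± 508, against 7955 ± 483 in Flag/HA control cells, and CDKN2B, the cyclin D kinase inhibitor p15, rose in Flag/HA-ZC3H7B cells to 484 ± 52.5, against 294 ± 44.6. Beside these lists, markers of the HEK293 line itself moved: of 10, 3 were called higher and 3 lower in Flag/HA-ZC3H7A cells, 4 and 1 in Flag/HA-ZC3H7B cells and 2 and 3 in those labelled ZC3H7A/B-DD. Their sum per library ran from 27988 to 30013 in Flag/HA-ZC3H7A cells and from 27540 to 30553 in Flag/HA-ZC3H7B cells, against 21419 to 22671 in Flag/HA control cells. It ran from 45693 to 50922 in the libraries labelled ZC3H7A/B-DD, against 25457 to 35607 in Parental libraries. These sums mostly follow VIM, with means of 24641 in Flag/HA-ZC3H7A, 23776 in Flag/HA-ZC3H7B and 17869 in Flag/HA control libraries. The VIM means were 41677 under the label ZC3H7A/B-DD and 21922 in Parental libraries. KRT8, a keratin, fell to 330.2 ± 33.7 normalized counts in Flag/HA-ZC3H7A cells, against 921 ± 26.8 in Flag/HA control cells, and to 209 ± 35.9 in the libraries labelled ZC3H7A/B-DD, against 1098 ± 292 in Parental libraries. INA, another of these markers, went the other way, at 1901 ± 29.3 in Flag/HA-ZC3H7A cells, against 844 ± 4.99 in Flag/HA control cells. INA was at 3041 ± 134 in the libraries labelled ZC3H7A/B-DD, against 1758 ± 155 in Parental libraries. The part of such shifts in the results on MYC was not tested.

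On the AP-1 side, 8 of 15 other AP-1 and related leucine zipper genes were higher and 1 lower in Flag/HA-ZC3H7A cells, 6 were higher and 1 lower in Flag/HA-ZC3H7B cells, and 2 of 16 each way in the libraries labelled ZC3H7A/B-DD (1 to 2 higher and 1 lower with 1 library left out). The 8 were 5 without Flag/HA-ZC3H7A replicate 1, and their median log2 changes were 0.61, 0.34 and −0.12. MAFG, a small MAF protein, rose to 311 ± 54.2 normalized counts in Flag/HA-ZC3H7A cells and 420.2 ± 34.4 in Flag/HA-ZC3H7B cells, against 149.6 ± 13.6 in Flag/HA control cells. ATF7, a partner of JUN proteins, rose to 359 ± 45.8 and 403 ± 41.8, against 208 ± 17.9 in Flag/HA control cells. ATF3, a stress-induced partner of JUN, fell to 658 ± 20.9 in Flag/HA-ZC3H7A cells, against 1083 ± 35.3 in Flag/HA control cells (limma, adjusted p = 4.27e-09). BATF3 fell to 318 ± 81.7 in libraries labelled ZC3H7A/B-DD, against 567 ± 26.5 in Parental libraries, and MAF rose to 1371 ± 224, against 807 ± 66.4 in Parental libraries (limma, adjusted p = 0.00733 and 0.00354).

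Immediate early genes other than the members were read as well. Of 34 tested, 9 were higher and 9 lower in Flag/HA-ZC3H7A cells and 12 and 11 in Flag/HA-ZC3H7B cells, and of 35 tested 7 were higher and 10 lower in libraries labelled ZC3H7A/B-DD (3 to 8 and 4 to 10 with 1 library left out). The 9 higher were 5 without Flag/HA control replicate 3, and the median log2 changes were 0.00, 0.01 and −0.13. BTG1, an antiproliferative gene, fell to 1051 ± 43.4 normalized counts in Flag/HA-ZC3H7A cells, against 1834 ± 76.9 in Flag/HA control cells, and DUSP1, a phosphatase that switches off the kinases of JUN, to 367 ± 27.0, against 587 ± 25.9. TRIB1, a scaffold of a ubiquitin ligase, rose to 1809 ± 102 in Flag/HA-ZC3H7A cells, against 1156 ± 89.9 in Flag/HA control cells. KLF6, a zinc finger factor, rose to 681 ± 28.4 in Flag/HA-ZC3H7A cells and 607 ± 26.5 in Flag/HA-ZC3H7B cells, against 366 ± 4.04 in Flag/HA control cells. ID1, which blocks helix-loop-helix factors, rose to 341 ± 21.6 in Flag/HA-ZC3H7B cells, against 195 ± 10.7 in Flag/HA control cells. KLF10, induced early by TGF-beta, fell there to 537 ± 34.7, against 717 ± 44.3 in Flag/HA control cells. NAB1, a corepressor of EGR1, fell to 1083 ± 90.1 in Flag/HA-ZC3H7B cells, against 1302 ± 51.3 in Flag/HA control cells (limma, adjusted p = 0.00107). ZFP36, which destroys mRNAs with AU-rich elements, rose to 389 ± 29.3 in libraries labelled ZC3H7A/B-DD, against 219 ± 11.9 in Parental libraries. DUSP5, a phosphatase of the growth factor cascade, fell there to 202 ± 10.8, against 396 ± 14.2 in Parental libraries (limma, adjusted p = 4.63e-04). ID3, a relative of ID1, fell to 561 ± 62.0, against 1015 ± 31.2 in Parental libraries, and MCL1, a survival protein of the BCL2 family, rose to 7785 ± 94.2, against 5233 ± 462.

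Kinases and factors that act on AP-1 and EGR1 stood near the background, with 7 of 26 higher and 6 lower in Flag/HA-ZC3H7A cells, 9 and 5 in Flag/HA-ZC3H7B cells, and 1 and 3 in the libraries labelled ZC3H7A/B-DD (1 to 4 and 1 to 3 with 1 library left out). Their median log2 changes were 0.01, −0.01 and 0.03. RPS6KA1, the growth factor responsive kinase RSK1, fell to 579 ± 67.0 normalized counts in Flag/HA-ZC3H7A cells, against 1104 ± 10.8 in Flag/HA control cells. It also fell in the libraries labelled ZC3H7A/B-DD, to 958 ± 77.7, against 1658 ± 112 in Parental libraries (limma, adjusted p = 6.87e-04). RPS6KA2, a related kinase, rose there to 262 ± 68.8, against 140.0 ± 14.8 in Parental libraries. RFWD2, the ubiquitin ligase COP1 that degrades JUN, fell to 1667 ± 74.0 in Flag/HA-ZC3H7A cells and 1639 ± 36.6 in Flag/HA-ZC3H7B cells, against 2101 ± 30.7 in Flag/HA control cells, and ITCH, another ligase for JUN, rose to 6565 ± 124 in Flag/HA-ZC3H7A cells, against 4845 ± 73.6. MAP2K7, the kinase that activates JNK, rose to 1973 ± 136 in Flag/HA-ZC3H7B cells, against 1277 ± 77.9 in Flag/HA control cells (limma, adjusted p = 6.35e-09). MAP2K2, a kinase of the growth factor cascade, rose there to 1595 ± 91.5, against 1065 ± 13.4 in Flag/HA control cells.

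AP-1 is known to raise genes of matrix breakdown, adhesion and the cell cycle. Of 15 AP-1 targets tested, 5 were higher and 7 lower in Flag/HA-ZC3H7A cells and 4 and 8 in Flag/HA-ZC3H7B cells, and of 16 tested 2 were higher and 7 lower in libraries labelled ZC3H7A/B-DD (1 to 3 and 5 to 7 with 1 library left out). Their median log2 changes were −0.17, −0.29 and −0.19. MMP2, a matrix protease, fell to 252 ± 30.4 normalized counts in Flag/HA-ZC3H7A cells and 464 ± 17.7 in Flag/HA-ZC3H7B cells, against 1042 ± 54.9 in Flag/HA control cells (limma, adjusted p = 9.5e-15 and 1.22e-10). TIMP1, an inhibitor of matrix proteases, fell in both as well, to 3159 ± 209.9 and 2765 ± 194, against 3847 ± 124 in Flag/HA control cells. HMGA1, a chromatin architecture protein, rose to 4273 ± 243 in Flag/HA-ZC3H7A cells, against 2911 ± 91.3 in Flag/HA control cells. VEGFA, a growth factor for blood vessels, rose to 1837 ± 139.7 in Flag/HA-ZC3H7B cells, against 1135 ± 40.3 in Flag/HA control cells, and VIM, vimentin, to 23776 ± 1718, against 17869 ± 545. CCND1, cyclin D1, rose to 2241 ± 144 in Flag/HA-ZC3H7A cells, against 1205 ± 29.8 in Flag/HA control cells. CCND1 fell to 398 ± 46.4 in libraries labelled ZC3H7A/B-DD, against 3262 ± 37.5 in Parental libraries, a log2 change of −3.04 ± 0.10 (limma, adjusted p = 7.98e-07). CD44, an adhesion receptor, fell there to 311 ± 10.3, against 978 ± 86.6 in Parental libraries, whereas VIM rose to 41677 ± 2444, against 21922 ± 4964.

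**Figure D5:**
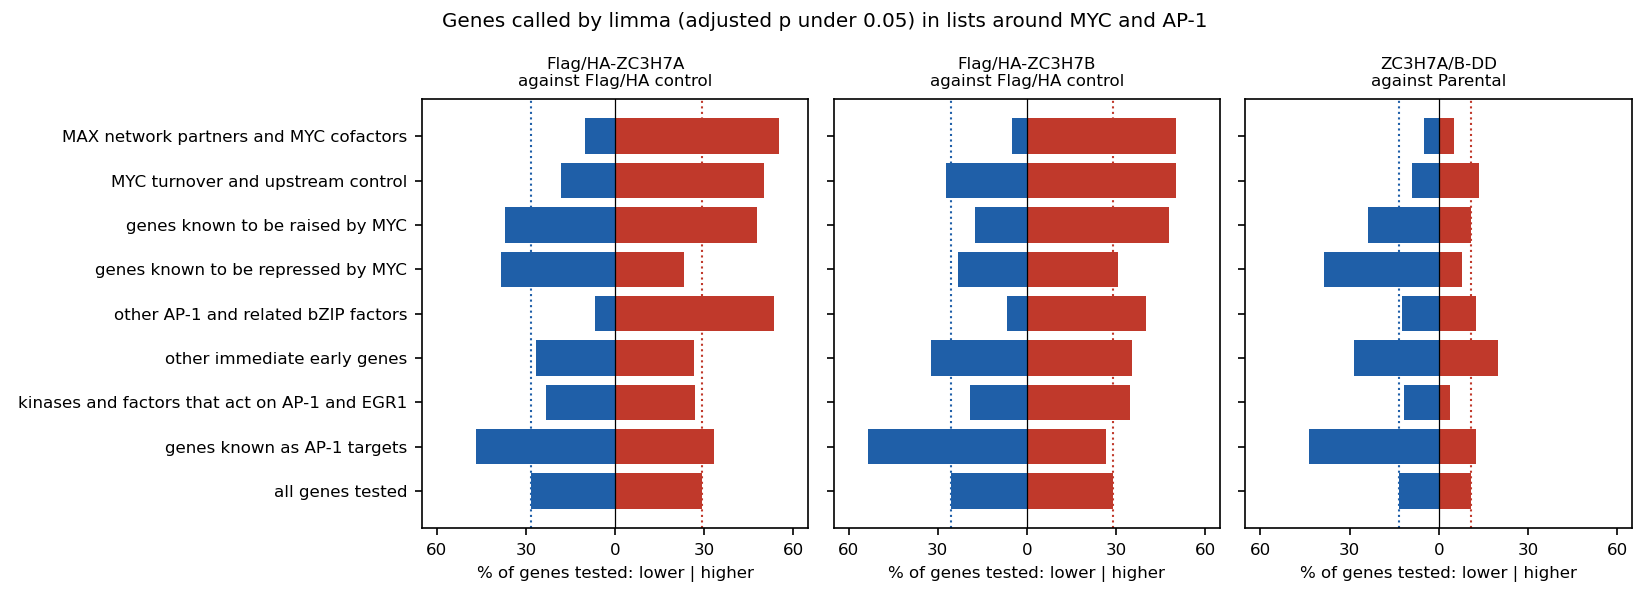
Share of tested genes of 8 lists called lower (blue, to the left) or higher (red, to the right) by limma at an adjusted p under 0.05, in %, with the shares over all genes tested as the lowest bar and as dotted lines. MAX partners and MYC cofactors reach 55% higher in the Flag/HA-ZC3H7A panel and AP-1 targets 43.8% lower in the panel of ZC3H7A/B-DD against Parental.

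The genes most like MYC were found by Pearson's r over the 15 libraries, after the mean of each set of libraries was taken off, among 11432 genes. NDRG1 came first with r = 0.984, followed by PSAT1, a serine synthesis enzyme, with 0.973, then RHPN2 with 0.958, ASB8 with 0.957 and MAP4, a microtubule protein, with 0.956. PSAT1 had 6664 ± 78.5 normalized counts in Flag/HA-ZC3H7A cells and 5517 ± 318 in Flag/HA-ZC3H7B cells, against 4772 ± 157 in Flag/HA control cells, and 5198 ± 356 in the libraries labelled ZC3H7A/B-DD, against 9078 ± 457 in Parental libraries. Among the members r with MYC was 0.79 for FOSL1, 0.74 for MXI1, 0.15 for MAX and −0.68 for JUN. The libraries of a group share their treatment and line, so these values describe the pattern and carry no test.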

How the data were processed

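The authors deposited 1 table of normalized counts, a signal per gene name and library that is never negative. Per the submitters' processing notes, the builds hg38 and hg19 and the tools DESeq2, HTSeq, STAR, Bowtie and cutadapt were used, with no version or role stated. The build behind these values and the treatment of reads with several positions are not given in the sources. When each library was divided by its smallest step, 100% of values became whole reads (tolerance 0.001). All 15 sample columns were mapped to samples by name, and 0 other columns of values were left out.

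The members and lists were chosen with earlier results of these data known. R 4.3.3 with limma 3.58.1 (moderated with a trend) tested log2(value + 1). Genes needed a value of 10 in 3 or more samples of the fit, and calls an adjusted p (Benjamini-Hochberg) under 0.05. Fold changes are on that log2 scale, which understates low genes such as MYCN. The 9 Flag/HA libraries shared 1 fit of 15599 genes and the other 6 libraries a fit of 17092 genes. Run on these reads, edgeR 4.0.16 by quasi-likelihood (both count tests with the recovered size factors) called 9033, 8496, 5746 and 4125 genes for Flag/HA-ZC3H7A and Flag/HA-ZC3H7B against Flag/HA control, Flag/HA-ZC3H7A against Flag/HA-ZC3H7B, and ZC3H7A/B-DD against Parental, and DESeq2 1.42.0 called 8799, 8265, 5585 and 4196.

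Per group, reads per library ranged over 24703005 to 25922138 (Flag/HA-ZC3H7A), 22661812 to 25939425 (Flag/HA-ZC3H7B), 28261810 to 29515572 (Flag/HA control), 20777204 to 42680589 (ZC3H7A/B-DD) and 32955833 to 39064072 (Parental). No molecular identifiers are named.

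Named are all members, the targets, the 5 genes most like MYC with a mean of 100 or more, and from each list up to 2 called genes per direction and control comparison with the smallest p. Of these, some whose call depended on a left-out library are named only under the dependence on processing, and results of a few are not reported here. Lists of fibroblast and blood cell markers summed to 107 to 759 and 117 to 790 normalized counts per library. Codons, 3′ UTRs and positions come from GENCODE release 29, which may not be the authors' annotation, and promoters from RefSeq. Alternatives were other pseudocounts, filters and scalings, both count tests, a replicate block, 1 fit of all 15 libraries and leaving out each library.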

Additional observations from a re-analysis of the deposited data

How the results depend on the processing

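The members' log2 changes in the 4 comparisons were held against the threshold of the fit, whether or not a test is given above. Of the alternative values, 597 kept their side of the threshold, 27 lost the call, 2 gained it and none of those called reversed. Direction was not compared where neither value was called, and some of these changed sign. MYCN in Flag/HA-ZC3H7B cells ran from −0.41 to 0.32 and JUND in Flag/HA-ZC3H7A cells from −0.08 to 0.13. JUN, FOS, MAX and JUND in Flag/HA-ZC3H7B cells kept their calls under every alternative run. The JUNB call there was also lost with quantile scaling (adjusted p = 0.142) and in 1 fit of all 15 libraries (adjusted p = 0.0658), and that of MXI1 in that fit of 15 (adjusted p = 0.0752). The cause was not tested. With each library left out in turn, the genes called numbered 8113 to 8554 for Flag/HA-ZC3H7A, 7563 to 7994 for Flag/HA-ZC3H7B, 4987 to 5514 between these lines and 1895 to 5560 in the libraries labelled ZC3H7A/B-DD (4182 as reported; 1895 without Parental replicate 2, 2452 without Parental replicate 1 and 2558 without ZC3H7A/B-DD replicate 3). Lists in the libraries labelled ZC3H7A/B-DD moved with it: genes raised by MYC ranged from 1 to 14 higher and 8 to 13 lower. Alternatives for list genes and targets were chosen after seeing the data. Named list genes whose call was lost without at least 1 library were MXD1 in Flag/HA-ZC3H7A cells, ATF3 in Flag/HA-ZC3H7B cells, and in the libraries labelled ZC3H7A/B-DD AURKA, PIM2, USP37, BOP1, NDRG2, BATF2, CREB5 and ELK3. FTH1, which has many near-identical pseudogenes, was called in Flag/HA-ZC3H7A cells at 17.9 ± 1.76 normalized counts, against 9.38 ± 6.54, and lost the call under 10 of 15 alternatives. ZC3H7A in the libraries labelled ZC3H7A/B-DD was higher by 1.59 on the log2 scale without replicate 2 of that line (adjusted p = 0.00129). Samples were not paired by replicate number. Deviations of same-numbered samples correlated at −0.06 to 0.05 between Flag/HA-ZC3H7A and Flag/HA control and −0.05 to 0.05 between Flag/HA-ZC3H7B and Flag/HA control. They correlated at 0.02 to 0.12 between the overexpressing lines and −0.13 to 0.03 between ZC3H7A/B-DD and Parental. Whether the numbers mark a shared batch cannot be told from these values. A replicate block gave 9169, 8714, 6026 and 2992 called genes, and changed no member's call.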
